A study of Mus musculus with 2 samples.

Results

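The 3 chains of complement C1q (C1qa, C1qb and C1qc), C3, the receptors C3ar1 and C5ar1, and properdin (Cfp) were followed in nuclei sorted as tumour-associated macrophages of mouse mammary tumours. These 7 genes were taken by symbol from the 32285 genes of a single-nucleus count matrix, and all 7 were found. The labels give 2 samples, each a group of its own, and both came from recipients with a PyMT mammary tumour (the polyoma middle T oncogene) on a strain backcrossed to B6. One is control-PyMT. The other is MYC-PyMT, which also carries S100a8-cre and Rosa26-LSL-MYC, alleles by which cre under the S100a8 promoter can switch MYC on. The donor marrow, described next, is named without these alleles, and which cells had MYC on was not tested. All recipients had been irradiated when 7 weeks old and carried bone marrow of Fcgr1-cre Rosa26LSL-H2B-mCherry/+ donors, and from 2 weeks after the transplant they ate a low protein diet for 6 weeks. Cells were sorted as CD45+ F4/80+ Vcam+ and negative for SiglecF, Ly6G, B220 and Ly6C, and their nuclei as mCherry+ SYTO9+ CD11b-.

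No label ties the 2 wells of the matrix to the 2 genotypes. The matrix was therefore treated as 1 pooled sample: no genotype comparison was made, no value has a biological replicate, and no p-value is given. Levels are unique molecular identifiers (UMIs, distinct captured molecules) of a gene, summed over a set of nuclei and scaled to the total UMIs of that set (CPM, the counts-per-million scale), with exact 95% intervals that cover counting error only.

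C1q starts the classical pathway of complement: 6 bundles of its A, B and C chains form a flower-shaped protein that binds antibody on a surface and also binds dying cells. It differs from most complement proteins, which the liver makes, in that tissue macrophages are a main source. C3 is the protein on which all pathways converge. Its fragment C3a and the C5 fragment C5a are read by the G protein-coupled receptors C3ar1 and C5ar1, and properdin stabilises the enzyme that cleaves C3 in the alternative pathway.

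In GENCODE vM21 (GRCm38) the chains lie side by side on the minus strand of chromosome 4, with C1qb at 136880129 to 136886187, C1qc at 136889804 to 136893065 and C1qa at 136895917 to 136898803. The cluster spans 18675 bp, with gaps of 3616 bp between C1qb and C1qc and 2851 bp between C1qc and C1qa. No chain overlaps another annotated gene. C3 lies at chromosome 17 (57203970 to 57228136), C3ar1 at chromosome 6 (122847138 to 122856161), C5ar1 at chromosome 7 (16246743 to 16259540) and Cfp at chromosome X (20925454 to 20931555), all on the minus strand.

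RefSeq (GRCm38.p6) gave a promoter for 6 of the 7 genes. Shown are the 250 bases before the RefSeq start site of the 2 chains so covered and, for comparison, of both receptors. They run 5′ to 3′ on the gene's strand. GENCODE starts C1qc and C5ar1 farther upstream, at 136893065 and 16259540, which lie inside these windows. Capitals mark exact matches, on either strand, to GAGGAA (a core bound by PU.1, the macrophage lineage factor), TGCTGA (a core bound by MAF proteins), TGACTCA (the AP-1 site) or CACGTG (the E-box bound by MYC and MiT/TFE proteins).
C1qb (chr4:136886201-136886450, minus strand): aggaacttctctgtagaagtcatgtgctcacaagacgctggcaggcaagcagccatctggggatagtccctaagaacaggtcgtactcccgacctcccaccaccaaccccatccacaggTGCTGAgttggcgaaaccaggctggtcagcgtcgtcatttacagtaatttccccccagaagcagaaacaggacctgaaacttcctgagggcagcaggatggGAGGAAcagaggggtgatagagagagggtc
C1qc (chr4:136892915-136893164, minus strand): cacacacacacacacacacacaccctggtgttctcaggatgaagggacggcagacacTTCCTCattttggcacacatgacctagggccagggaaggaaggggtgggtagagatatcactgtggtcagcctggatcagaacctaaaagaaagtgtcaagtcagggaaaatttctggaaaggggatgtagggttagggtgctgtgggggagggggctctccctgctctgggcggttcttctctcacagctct
C3ar1 (chr6:122856158-122856407, minus strand): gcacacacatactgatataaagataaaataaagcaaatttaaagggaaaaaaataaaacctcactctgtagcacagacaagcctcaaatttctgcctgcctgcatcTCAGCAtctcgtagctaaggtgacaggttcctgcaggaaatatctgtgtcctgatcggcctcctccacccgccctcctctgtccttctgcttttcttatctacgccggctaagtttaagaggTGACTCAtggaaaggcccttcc
C5ar1 (chr7:16259339-16259588, minus strand): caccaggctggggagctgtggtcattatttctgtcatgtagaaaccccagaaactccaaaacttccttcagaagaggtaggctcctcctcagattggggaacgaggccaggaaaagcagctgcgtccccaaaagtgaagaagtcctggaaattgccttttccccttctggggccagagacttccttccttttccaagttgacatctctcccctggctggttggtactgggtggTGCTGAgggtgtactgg
The capitals in C1qc are the PU.1 core read on the opposite strand. Those in C3ar1 farther from the start are the MAF core on the opposite strand, and those nearer to it are the AP-1 site. The MAF core was matched in 4 of the 6 promoters (C1qb, C3, C3ar1 and C5ar1), against 16.1% of 32851 promoter windows of the same length. The C5ar1 match lies inside the gene as GENCODE places it. The PU.1 core was matched in 2 of 6 (C1qb and C1qc), against 23.3%, and the AP-1 site in 1 of 6 (C3ar1), against 4.46%. The E-box was in 0 of 6, against 6.02%, and the Cfp window held none of the motifs. No matches overlapped. A match describes letters in a window and was not tied to binding.

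The filters left 1812 nuclei with 7342649 UMIs, of which 1377 were in well 1 and 435 in well 2, and 9 barcode sequences occurred in both wells. Clustering without complement genes placed 1244 nuclei as macrophage (median 2764 UMIs), 289 as epithelial-like (median 4936), 11 as T cell-like and 268 in a low-count set (median 690). The 13 macrophage markers summed to 8839 CPM in macrophage and 845 CPM in epithelial-like nuclei. Of these, Adgre1, which encodes the sorted protein F4/80, was at 489 CPM against 9.65 CPM. The 14 epithelial markers summed to 1577 CPM and 9993 CPM in the same order. Epithelial cells are outside the sort, and how their nuclei entered was not tested.

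Macrophage nuclei fell into 7 states. They were resident-like (219 nuclei, led by F13a1, Retnla, Lyve1 and Cd163), inflammatory-like (153, with Nlrp3), lipid-laden-like (107, led by Gpnmb and with Atp6v0d2) and an immediate-early and heat shock state (198, with Dnajb1 and Atf3). The others stayed unnamed and are called here by a leading gene: the Itga8 state (390 nuclei), the Igf1 state (132) and the Ifit3 state (45). States and wells were entangled, since 207 of the 219 resident-like nuclei were in well 2, while 149 of the inflammatory-like, 381 of the Itga8 and 191 of the immediate-early nuclei were in well 1. For these, state and library cannot be told apart.

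C1q was carried by macrophage nuclei in every state and differed 2.60-fold between the highest and the lowest state. All macrophage nuclei together held 5703 C1q UMIs, or 1472 CPM (1434 to 1511). The level was 2019 CPM (1918 to 2124) in resident-like and 1904 CPM (1695 to 2132) in Ifit3 nuclei. It was 1538 CPM (1414 to 1671) in Igf1, 1492 CPM (1425 to 1562) in Itga8 and 1488 CPM (1389 to 1592) in immediate-early nuclei. The lowest levels were 834 CPM (747 to 928) in inflammatory-like and 775 CPM (691 to 868) in lipid-laden-like nuclei. The levels thus form 3 tiers: neighbours within a tier did not differ beyond counting error, and the intervals of the ratios between tiers lay above 1. The resident-like place rests on 98 of its nuclei, high in Lyve1 and at 2687 CPM, described below. Its other 121 nuclei were at 1251 CPM (1136 to 1375), below the intervals of the 3 middle states. In the Ifit3 state 1 nucleus, in well 2, held 44 of the 301 C1q UMIs, and the 35 nuclei of well 1 were at 1729.8 CPM (1505 to 1978), which overlaps the interval of the Igf1 state. The median nucleus ran in a similar order, from 571 CPM in lipid-laden-like and 702 CPM in inflammatory-like to 1567 CPM in resident-like nuclei.

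**Figure D1:**
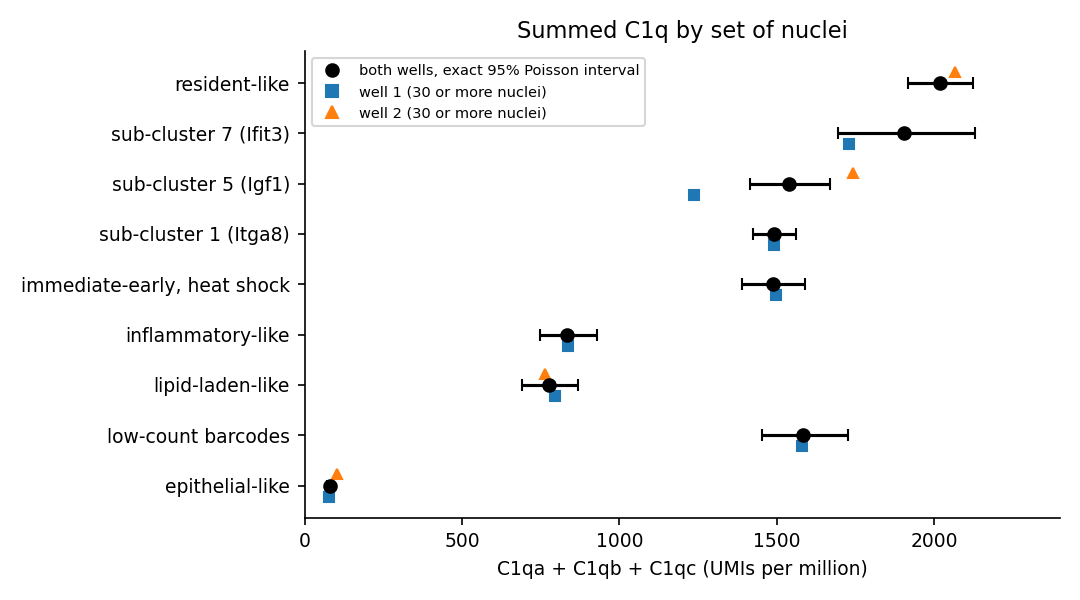
Summed C1qa, C1qb and C1qc (x axis, CPM) in each set of nuclei (y axis). Black points are both wells with exact 95% Poisson intervals, squares well 1 and triangles well 2 where a set has at least 30 nuclei there; lipid-laden-like and inflammatory-like nuclei sit at 775 and 834 CPM, below all other macrophage states, and epithelial-like nuclei at 80.1 CPM.

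The resident-like level was 2.42 times the inflammatory-like level (2.15 to 2.73). In well 1 alone the 12 resident-like nuclei held 988 CPM (680.2 to 1388), which overlaps the 836 CPM (749 to 931) of its 149 inflammatory-like nuclei. Where each nucleus was instead placed by its highest marker panel, the log2 ratio fell from 1.28 to 0.70. With all nuclei kept, the lipid-laden-like level did not differ between wells beyond counting error. It was 797 CPM (41 nuclei) in well 1 and 763 CPM (66 nuclei) in well 2, a ratio of 1.04 (0.820 to 1.32). However, 1 nucleus held 46 of the 189 C1q UMIs of well 2, and the well ratio without it was not computed. The C1q level of the Igf1 state differed between wells, at 1236 CPM (54 nuclei) and 1744 CPM (78 nuclei).

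Lipid-laden-like nuclei held 0.50 times the C1q of the other macrophage nuclei (0.444 to 0.562), or -1.0 on the log2 scale. The well 2 nucleus with 46 C1q UMIs supplied 15.2% of their C1q UMIs, and without it the log2 ratio was -1.22. It was -0.34 with nuclei placed by their marker panels, -0.41 at resolution 0.4 and -0.45 with complement genes allowed in the clustering. In well 1 it was -0.79 (-1.07 to -0.52), and in well 2, where this state meets the resident-like nuclei, -1.37.

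A sum over 97 genes whose symbols begin with Rpl or Rps and a digit ran in nearly the same order as C1q. Genes of ribosomal proteins, whose mRNA is mainly cytoplasmic and can cling to nuclei, are named so. The rule also takes in kinase genes such as Rps6ka1, whose part in the sum was not measured. This ribosomal sum was 12115 CPM in resident-like and 11008 CPM in Ifit3 nuclei, and 9390 to 10372 CPM in the middle 3 states. It was 9011 CPM in lipid-laden-like and 8305 CPM in inflammatory-like nuclei. Across 9 points, each a state in a well with at least 30 nuclei, the log2 levels of both correlated with r = 0.81. The points share 2 libraries, so r is only a description. The ribosomal range was 1.46-fold. C1q per 100 ribosomal UMIs still ran from 8.61 in lipid-laden-like to 17.3 in Ifit3 nuclei, a range of 2.01-fold. The part of carried-over cytoplasmic RNA in the C1q order was not tested.

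After each nucleus was thinned to 1000 UMIs, leaving out 87 shallower ones, 65.3% of 1157 macrophage nuclei held at least 1 C1q UMI (unthinned, 84.3%). The share was 71.5% in Itga8, 72.7% in Ifit3 and 70.6% in Igf1 nuclei, 65.9% in resident-like and 65.4% in immediate-early nuclei, and 51.8% and 50% in inflammatory-like and lipid-laden-like nuclei. Epithelial-like nuclei, set beside them for comparison, had a share of 11.0% of 254 (7.45 to 15.5%).

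The resident-like state held a high-C1q and a low-C1q set. That state divided at a finer clustering resolution of 1.2, still without complement genes. It gave 98 nuclei high in Lyve1 and Cd163, of the resident-like markers, and 121 nuclei high in Ccr2 and Vcan, of the monocyte markers. Lyve1 was at 239.9 CPM in the former, and the latter held 0 UMIs of it. Ccr2 was at 384 CPM and 1187 CPM in that order. The split was chosen for description after values had been seen. Nuclei were sorted as mCherry+, a label that the donor marrow carries, and the origin of neither set was tested.

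All 3 chains were higher in the Lyve1-high nuclei. C1q was at 2687 CPM (2528 to 2853) in Lyve1-high and 1251 CPM (1136 to 1375) in Ccr2-high nuclei, a ratio of 2.15 (1.92 to 2.41). Of this, C1qa differed 2.33-fold, C1qb 1.78-fold and C1qc 2.63-fold. In well 2 alone, with 96 and 111 nuclei, the C1q ratio was 2.10 (1.87 to 2.36). The ribosomal sum, by the same gene symbols, went the other way, at 10502 CPM in Lyve1-high and 13968 CPM in Ccr2-high nuclei. After thinning, 82.7% of 98 Lyve1-high and 48.6% of 107 Ccr2-high nuclei held a C1q UMI.

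**Figure D2:**
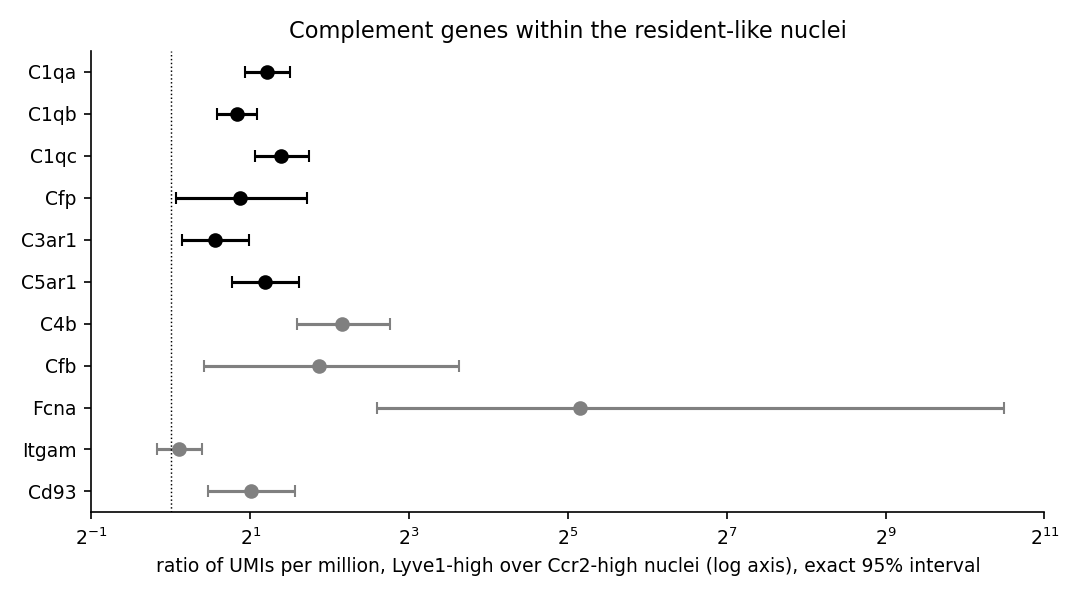
Ratio of the level in Lyve1-high to that in Ccr2-high resident-like nuclei (x axis, log scale) for complement genes (y axis), with exact 95% intervals; black marks genes of the set described and grey the other complement genes. C1qc at 2.63 and C5ar1 at 2.28 lie above 1, and Itgam at 1.08 has an interval that includes 1.

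C5ar1, C3ar1 and Cfp were also higher in the Lyve1-high nuclei, as were several further complement genes. C5ar1 was at 437 CPM in Lyve1-high and 192 CPM in Ccr2-high nuclei, 2.28-fold apart (1.71 to 3.08). C3ar1 was at 326 CPM and 221 CPM (1.48-fold, 1.10 to 1.99), and Cfp at 106 CPM and 58.0 CPM (1.83-fold, 1.05 to 3.29). In well 2 alone the Cfp ratio was 1.71, with an interval of 0.980 to 3.08 that includes 1. C3 had 1 UMI in Lyve1-high and 5 in Ccr2-high nuclei, a ratio of 0.174 whose interval of 0.00368 to 1.56 includes 1. C4b, the C4 protein that C1q's proteases cleave, was at 401 CPM and 90.0 CPM (4.46-fold), though reads of the near-identical C4a may be split between the copies. C6, of the membrane attack complex, and Fcna, the lectin pathway recogniser ficolin A, are named after their values were seen. All 44 macrophage UMIs of C6 and 41 of 43 of Fcna lay in the 98 Lyve1-high nuclei. Against the limit of 3 UMIs over the Ccr2-high nuclei, C6 was at least 12.8-fold higher in Lyve1-high nuclei.

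In macrophage nuclei C1qa made up 34.8% of C1q UMIs (33.5 to 36.0%), C1qb 39.8% (38.6 to 41.1%) and C1qc 25.4% (24.3 to 26.5%). Across the 7 states C1qa ranged from 30.4% (Igf1) to 38.6% (lipid-laden-like), C1qb from 37.3% (lipid-laden-like) to 43.5% (inflammatory-like) and C1qc from 21.9% (inflammatory-like) to 28.7% (Igf1). The Igf1 state stood farthest from the others, with less C1qa (26.7 to 34.4%) and more C1qc than the Itga8 state (32.4 to 36.8% C1qa), though the intervals overlapped. Within the resident-like state C1qb took 37.0% of C1q UMIs in Lyve1-high and 44.8% in Ccr2-high nuclei, and C1qc 27.5% and 22.5%. Between wells C1qb took 39.9% of C1q UMIs in well 1 and 39.8% in well 2, and C1qc 24.9% and 26.2%.

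**Figure D3:**
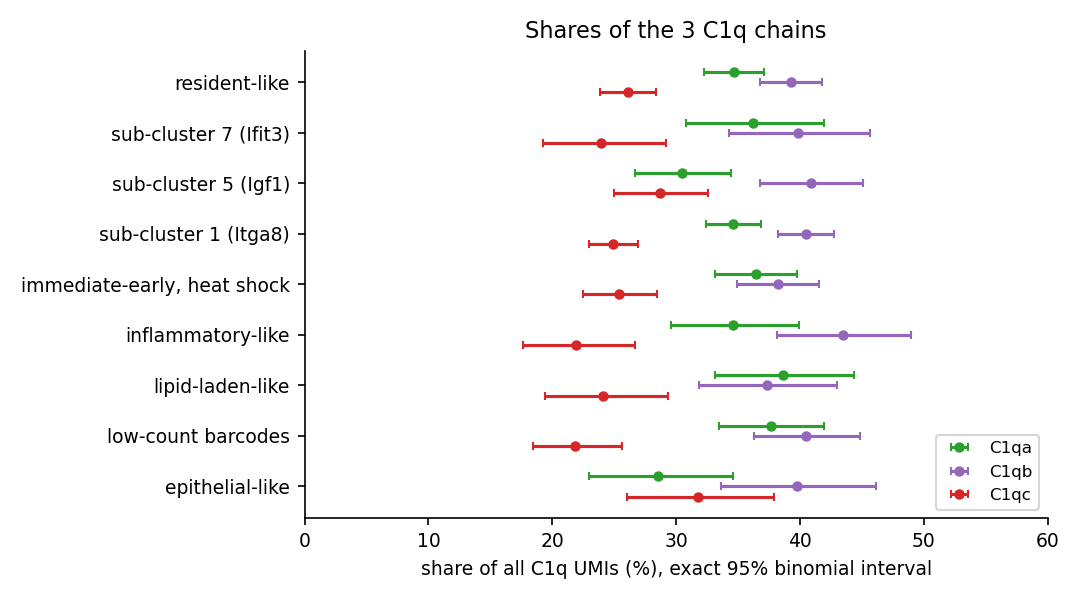
Share of each chain among C1q UMIs (x axis, percent) in each set of nuclei (y axis), with exact 95% binomial intervals. In macrophage states C1qb lies between 37.3% and 43.5%, C1qa between 30.4% and 38.6% and C1qc between 21.9% and 28.7%.

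As ratios, there were 1.15 C1qb UMIs (1.08 to 1.22) and 0.730 C1qc UMIs (0.682 to 0.782) per C1qa UMI in macrophage nuclei. Per kilobase of gene the order changed, since C1qb is the longest gene at 6.059 kb, C1qc has 3.262 kb and C1qa 2.887 kb. On that scale C1qa was highest at 177 CPM per kb, C1qc stood at 115 and C1qb at 96.8, which makes shares of 45.6%, 29.5% and 24.9%. C1qb per C1qa was then 0.546 and C1qc per C1qb 1.18. UMIs are counted from the 3′ end, where length need not scale the count, so the scale decides the order.

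C1qc was found more often in nuclei that also held C1qa, and this was so in each of the 7 states. The other pairs of chains did not keep this direction in every state. After thinning, 402 macrophage nuclei had a UMI of 0 chains, 450 of 1, 235 of 2 and 70 of all 3. C1qb was found in 45.8% of 384 nuclei with C1qa and in 36.2% of 773 without it. C1qc was found in 34.1% and 20.6% of the same nuclei, and the gap ran from 21.9% against 17.4% in inflammatory-like to 63.2% against 28.0% in Ifit3 nuclei. These state values rest on only 19 to 139 nuclei with C1qa and carry no intervals. At 2000 UMIs the inflammatory-like values were 34.3% against 32.3%. For C1qb the Itga8 state had 42.4% against 42.2%, and 68.0% against 69.6% after thinning to 2000 UMIs. In the Igf1 state the C1qb shares were 43.5% against 43.8% at 1000 UMIs but 78.0% against 64.1% at 2000 UMIs. C1qc was found in 30.3% of 456 macrophage nuclei with C1qb and in 21.7% of 701 without it. For that pair the immediate-early state had 26.5% against 27.0%, and the Itga8 state 29.4% against 27.3%. C3ar1 was found in 12.8% of 755 nuclei with any chain and in 13.2% of 402 without, and at 2000 UMIs in 26.7% of 742 and 21.1% of 133. Levels over the 9 points ran together for C1qa and C1qb (r = 0.87), C1qb and C1qc (0.92) and C1qa and C1qc (0.93), again a description.

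C3, the substrate of the pathway, was nearly undetected. All nuclei held 31 UMIs, 13 in macrophage nuclei at 3.36 CPM (1.79 to 5.74) and 13 in epithelial-like nuclei at 4.18 CPM (2.23 to 7.15). The epithelial to macrophage ratio was 1.25 (0.532 to 2.92). One epithelial-like nucleus supplied 5 of the 13 UMIs, and with each nucleus weighted equally the log2 ratio changed from 0.32 to -2.61. A difference was not detectable at this depth. Resident-like nuclei had 6 of the 13 macrophage UMIs.

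The C3a receptor gene C3ar1 was highest in lipid-laden-like and resident-like nuclei. Lipid-laden-like nuclei were at 315 CPM (262 to 376) and resident-like nuclei at 277 CPM (240.2 to 317), which did not differ beyond counting error. The Igf1 state followed at 196 CPM, then the immediate-early state at 155, the inflammatory-like at 116, the Itga8 at 114 and the Ifit3 state at 108 CPM. The level in lipid-laden-like nuclei was 1.92 times that of other macrophage nuclei (1.57 to 2.34). One nucleus held 25 of their 123 UMIs, and without it the log2 ratio fell from 0.94 to 0.64. With nuclei placed by marker panels it was 0.23, with an interval of -0.16 to 0.59 that includes 0, and in well 2 alone it was 0.43. After thinning, C3ar1 was found in 24.0% of 100 lipid-laden-like, 20% of 205 resident-like and 8.56% of 362 Itga8 nuclei.

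C3ar1 did not follow C1q across states. There were 40.6 C3ar1 UMIs per 100 C1q UMIs in lipid-laden-like nuclei (32.6 to 50.2), and 5.65 to 13.9 in the other 6 states. By well it was 29.8 (19.7 to 44.1) in well 1 and 47.1 (36.2 to 60.9) in well 2, or 35.4 (26.2 to 47.3) in well 2 without the nucleus with 25 C3ar1 UMIs. Over the 9 points C3ar1 and summed C1q had r = -0.21. Within the Igf1 state C3ar1 was at 256 CPM in well 2 and 108 CPM in well 1. In lipid-laden-like nuclei it was at 359 CPM and 238 CPM in that order, and without the nucleus with 25 UMIs, which is in well 2, at 265 CPM and 238 CPM, a ratio of 1.12 (0.726 to 1.75). Over all macrophage nuclei it was at 285 CPM in well 2 and 129 CPM in well 1. Genotype, mouse and library cannot be told apart in such a difference.

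**Figure D4:**
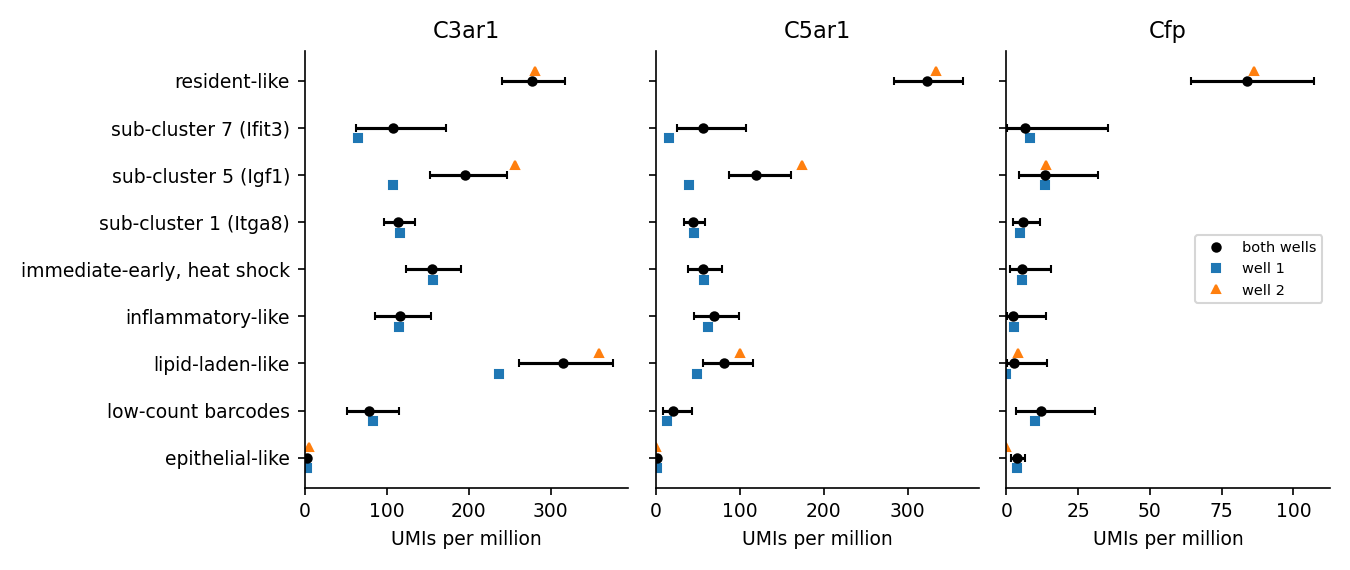
C3ar1, C5ar1 and Cfp (x axes, CPM) in each set of nuclei (y axis). Black points are both wells with exact 95% intervals, squares well 1 and triangles well 2 where a set has at least 30 nuclei there; C5ar1 and Cfp are highest in resident-like nuclei at 323 and 83.7 CPM, and C3ar1 in lipid-laden-like and resident-like nuclei at 315 and 277 CPM.

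C5ar1, whose product draws myeloid cells towards C5a, was highest in resident-like nuclei. It was at 323 CPM there (283 to 366), 120 CPM in the Igf1 state (87.0 to 161) and 45.0 to 81.9 CPM in the other 5 states, whose neighbours in order did not differ beyond counting error. The resident-like level was 5.03 times that of other macrophage nuclei (4.15 to 6.10). C5ar1 was found in 22.9% of 205 resident-like nuclei after thinning and in 3.04% of 362 Itga8 nuclei. It also differed between wells within the Igf1 state, at 40.3 CPM in well 1 and 174 CPM in well 2. In well 2 alone the log2 ratio of resident-like to other nuclei was 1.30, against 2.33 in both. In well 1 alone, with 12 resident-like nuclei, it was 0.87, with an interval of -1.43 to 2.44 that includes 0.

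Cfp was nearly limited to resident-like nuclei. They held 62 of the 80 macrophage UMIs, at 83.7 CPM (64.2 to 107), and the other 6 states were at 2.47 to 13.6 CPM. The ratio was 14.6 (8.51 to 26.2) in both wells together. In well 2 alone its log2 value was 3.21, against 3.87. In well 1 alone it was 2.58, with an interval of -2.83 to 5.31 that includes 0. The alternatives gave ratios of 5.98 to 14.4, with log2 values of 2.91 for nuclei placed by marker panels, 3.15 with another clustering seed, 3.16 with at least 1000 UMIs per nucleus and 3.28 at resolution 1.2. The neutrophil markers, of a cell type that also makes properdin, summed to 99.9 CPM in resident-like and 106 CPM in all macrophage nuclei. Their sum was highest at 209.7 CPM in inflammatory-like nuclei, where Cfp had 1 UMI. Of these 6 markers, 3 had at least 5 UMIs in macrophage nuclei, and the source of the Cfp UMIs was not tested. Per kilobase of gene, the receptors and Cfp were lower than any C1q chain in macrophage nuclei, with C3ar1 at 19.9 CPM per kb, C5ar1 at 8.88, Cfp at 3.38 and C3 lower still.

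Epithelial-like nuclei held little of any member. C1q was at 80.1 CPM (70.5 to 90.7), which is 18.4 times lower than in macrophage nuclei (16.2 to 20.9). C3ar1 was at 3.22 CPM (10 UMIs), C5ar1 at 1.29 CPM (4 UMIs) and Cfp at 3.54 CPM (11 UMIs). Of the members, 6 had the 50 UMIs over both sets needed for a call, and all 6 were at least 2-fold higher in macrophage nuclei, where 15.9% of 10685 genes were. C3, with 13 UMIs in each set, could not be called.

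C1q in epithelial-like nuclei was uneven and did not follow every macrophage gene. It was found in 120 of 289 nuclei, and the 29 nuclei with most held 54.6% of the UMIs. As a percentage of the macrophage level, C1qa stood at 4.46%, C1qb at 5.43% and C1qc at 6.80%, while Adgre1 stood at 1.97%, Ptprc, the gene for CD45, at 3.20%, C3ar1 at 1.80% and C5ar1 at 1.13%. In the 123 nuclei without a UMI of 7 macrophage markers C1q was at 85.9 CPM, and in the 166 with one at 78.9 CPM. The chain shares were 28.5%, 39.8% and 31.7% for C1qa, C1qb and C1qc, with wide intervals (23.0 to 34.6%, 33.6 to 46.1% and 26.0 to 37.9%). Weighting each nucleus equally raised the level to 201 CPM. The part of free RNA was not tested.

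The low-count set held C1q at 1585 CPM (1452 to 1726), the level of macrophage nuclei, with 37.6% C1qa, 40.5% C1qb and 21.9% C1qc. There C1qa was at 117% and C1qc at 92.7% of the macrophage level, while Adgre1 was at 23.4%, C3ar1 at 43.7% and C5ar1 at 18.6%. The ribosomal sum, by the same gene symbols, was 62152 CPM in the set, against 10228 CPM in macrophage nuclei. Epithelial markers summed to 9893 CPM in the set. Pericyte markers summed to 334 CPM in the set and 3.87 CPM in macrophage nuclei, and fibroblast markers to 259 and 6.71 CPM. The 11 T cell-like nuclei held 2 C1q UMIs. What the low-count barcodes hold was not tested.

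Of 52 complement genes listed by role, 22 had enough UMIs to set macrophage against epithelial-like nuclei. At least 2-fold higher in macrophage nuclei were 13 of them, where 15.9% of all genes were. They included the 3 chains, C4b, Cfp and 7 receptors. Those were C3ar1, C5ar1, C5ar2, Cd93, which is linked to phagocytosis, and the integrin chains Itgam, Itgax and Itgb2 of complement receptors 3 and 4. At least 2-fold lower were 4, where 26.3% of all genes were: the inhibitors Clu (8.0 against 216 CPM), Cd55 (3.10 against 74.0 CPM) and Cd59a (2.32 against 50.2 CPM), and C9, of the membrane attack complex (0.516 against 18.7 CPM). C5ar2 and C9 are named after their values were seen. The list's median log2 ratio was 2.04, against -0.32 over all genes tested. Hepatocyte markers, of the main source of plasma complement, were at or near 0, with 1 UMI of Alb and 0 of Apoa1 and Ttr in macrophage nuclei.

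**Figure D5:**
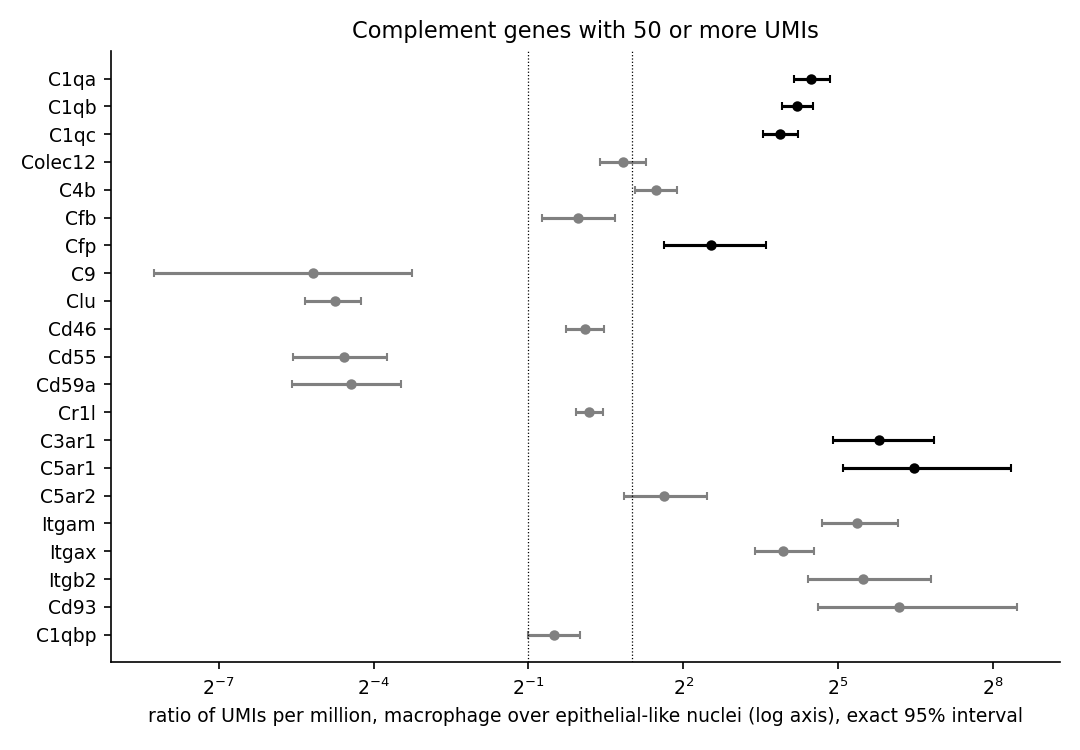
Ratio of the level in macrophage to that in epithelial-like nuclei (x axis, log scale) for listed complement genes with at least 50 UMIs (y axis), with exact 95% intervals; dotted lines mark 2-fold either way and black the genes of the set described. C5ar1 at 88.3 and C3ar1 at 55.7 lie far to the right and Clu at 0.0371 far to the left.

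Among states, 17 listed genes could be tested, and calls at 2-fold set each state against all other macrophage nuclei. In resident-like nuclei 6 were higher, where 7.37% of 7803 genes were. They included C4b (257 against 10.9 CPM, 23.6-fold), Cfp, C5ar1, Itgam (593 against 139 CPM, 4.26-fold) and Cd93 (188 against 41.8 CPM, 4.49-fold). Lower were 2, where 9.05% were: Itgax (28.4 against 164 CPM) and the scavenger receptor Colec12. The list's median log2 ratio was 0.64, against 0.04 over all genes. Of the members, Cfp and C5ar1 were thus called, and the chains, at 1.47 to 1.56 times, were not.

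In lipid-laden-like nuclei 8 listed genes were lower, where 15.7% of genes were. They included C1qb, C1qc, C4b, Cfp, Cr1l, C5ar2 and Itgam. C1qb was at 289 against 620 CPM and C1qc at 187 against 395 CPM, while C1qa, at 299 against 536 CPM (0.559 times), missed the 2-fold mark. Colec12 alone was higher, at 209.9 against 17.2 CPM (12.2-fold), where 7.63% of genes were. In inflammatory-like nuclei 7 were lower, where 28.1% of genes were, and 0 higher, where 6.04% were. C1qc and Cfp were among the lower ones. In the Itga8 state 0 were higher, where 4.61% of genes were, and 6 lower, where 9.14% were. In the immediate-early state 0 were higher (2.22% of genes) and 6 lower (7.86%). Both sets held C5ar1, Cfp, C4b and Cd93, and the chains stood between 0.963 and 1.07 times the rest there. The Ifit3 state had 0 higher (8.51% of genes) and 5 lower (11.3%), Cfp among them. Cfp had 1 UMI in that state, and its ratio of 0.298 has an interval of 0.00744 to 1.71 that includes 1. The Igf1 state had 0 lower (7.02%) and C5ar2 higher (3.52%).

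The genes most like summed C1q over the 9 points, by Pearson's r of log2(CPM + 10) among 3852 genes, included Zfp217 (0.96), Sel1l, St3gal4, Vsir, Rpl13a, Ms4a6c, Clec4a3, Rcsd1 and Clec4a2 (0.94). Vsir encodes the checkpoint protein VISTA, the Clec4a genes encode C-type lectins of myeloid cells, and Rpl13a is a ribosomal protein gene. The most opposite was the integrin gene Itga5 (-0.92). Maf, a transcription factor of macrophage identity, had r of 0.76. C3ar1 was most like Cd68 (0.99), a lysosomal membrane gene, Ppp2r5a and Ctsa. C5ar1 was most like St3gal5 (0.94), Rps3a1 and Rab11a, and Cfp like Ccr2 (0.96), Ccl9 and Ap2a2. With 2 libraries behind 9 points, these r values describe the points only.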

How the data were processed

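UMI counts were those the authors deposited, 1 whole-number count per gene and barcode. Per the submitters' processing notes Cell Ranger 5.0 and mm10 were used, and per the file headers the software was version 5.0.1. The counting of introns is not given in the sources used here. Libraries were made with the 10x 3' v3 kit, per the labels' protocols. Members, gene lists and settings were chosen with earlier results of these data known, and the rules for naming clusters were set after clusters had been seen.

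Of 1838 barcodes, 21 were removed (under 500 UMIs, under 300 genes or over 5% mitochondrial UMIs), and Scrublet called 0 doublets in well 1 and 5 in well 2, also removed. Leiden clustering (scanpy 1.11.5, igraph 0.11.9) used 2000 variable genes without the 52 listed complement genes, 30 components and 15 neighbours, at resolution 0.5 and, within macrophages, 0.8. A state was named where at least 3 markers of a panel had 5 UMIs and the panel was 1.5 times that of other macrophages, by the panel with most genes among the 10 leading. Ratio intervals are conditional binomial, share intervals Clopper-Pearson. A fold was called at 2-fold with at least 50 UMIs over both sets. Named genes were the members, listed genes at 20 CPM or more in macrophage or epithelial-like nuclei, and those most like each member. C5ar2, C6, C9, Fcna, Itga5 and Maf were named after their values were seen. A few genes that the rule names are not reported here. Fold calls, intervals and thinning were tested on simulated data. Gene positions are from GENCODE vM21, where 32235 identifiers matched.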

Additional observations from a re-analysis of the deposited data

How the results depend on the processing

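No paired analysis was possible because neither well could be tied to a sample and each group has 1 sample. Of 136 alternative values, 16 could not change by construction, and 75 of the other 120 stayed within the counting interval of the reported value. With wells 1 and 2 taken alone, C1q in macrophage nuclei was 1347 and 1737 CPM, C3ar1 129 and 285, C5ar1 49.8 and 248, Cfp 5.33 and 53.0, and the log2 ratio of resident-like to inflammatory-like C1q 0.24 and 1.57. In well 2 that ratio rests on 4 inflammatory-like nuclei and has a wide interval of 0.34 to 3.19. C1q in epithelial-like nuclei was 103 CPM in well 2 alone. With each nucleus weighted equally, C1q was 1387 CPM in macrophage and 201 CPM in epithelial-like nuclei, C3ar1 159 and C5ar1 102 CPM, the log2 ratio of resident-like to inflammatory-like C1q 1.02 and the log2 ratio of epithelial to macrophage C3 -2.61. With nuclei placed by marker panels, C1q was 1529.8 CPM and 112 CPM and its log2 ratio 0.70. That ratio was 1.67 with at least 1000 UMIs per nucleus, 1.71 at resolution 1.2 and 1.66 with another clustering seed. Epithelial-like C1q was 105 CPM with at least 1000 UMIs, 61.0 CPM with that seed and 62.3 CPM with complement genes allowed in the clustering. Thinned to 2000 UMIs, 84.8% of macrophage nuclei held C1q. Per kilobase, C1qb per C1qa turned to 0.546 and C1qc per C1qb to 1.18. The causes were not tested. At resolution 0.4 no inflammatory-like set was named, and in well 2 epithelial-like nuclei held 0 C3 UMIs, so those ratios have no value. Resident-like C1q stayed above inflammatory-like C1q, and lipid-laden-like C1q below the rest, in every alternative with a value, although in well 1 alone the interval of the former ratio includes 0. Alternatives without the nucleus richest in C1q or C3ar1 were chosen after seeing the data. Depth limits C3 most, with 31 UMIs.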
